A study of Mus musculus with 4 samples.

Results

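Expression of 10 genes of the unfolded protein response and the integrated stress response was followed in the lumbar spinal cord of WT and G93A mice that had received vehicle or spermidine (SD), a natural polyamine. The genes were Atf4, Atf5, Ddit3, Chac1, Trib3, Asns, Sesn2, Hspa5, Xbp1 and Herpud1, and they were taken by name as known components of these pathways, with earlier results of these data known. All 10 were present, in 12 of the 23750 rows and among the 18674 gene names of the expression table. Atf5 and Hspa5 have 2 rows each, and the mean of the rows was used for them. The genes described without a promoter below lie, on GRCm38.p6, at chr15:80255184-80257545 (Atf4), chr7:44812256-44816658 (Atf5), chr4:132492804-132510456 (Sesn2) and chr11:5520641-5525993 (Xbp1).

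RNA was sequenced in 4 libraries, 1 each for WT mice given vehicle, WT mice given SD, G93A mice given vehicle and G93A mice given SD. G93A mice carry a human SOD1 transgene with the ALS-linked G93A substitution, expressed under the human SOD1 promoter in all cell types and not only in neurons. The methods name the high-expresser H1 strain, bred with B6/SJLF1 females, and only males were used in treatment studies. WT mice lack the transgene. According to the labels, SD or its vehicle was given 4 times a week for 30 days, and the mice were 100 days old when the cord was taken. The labels name PBS as the vehicle, whereas the section on SD dosing names saline and an intraperitoneal dose of 5 mg/kg. How many animals each library stands for is not given in the sources used here. With 1 library per condition, no difference below has a replicate check, and no test or p-value is given. Values are in RPKM, that is reads relative to the length of the transcript and to the depth of the library, and each is a single library without an error.

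When misfolded proteins accumulate in the endoplasmic reticulum (ER), the sensors PERK, IRE1 and ATF6 start the unfolded protein response, which slows translation and raises the output of chaperones and degradation factors. PERK is one of several kinases that phosphorylate the translation factor eIF2alpha, and the programme that follows from this phosphorylation is the integrated stress response. Its main transcription factor, ATF4, is controlled largely by translation, so the level of its mRNA is only a partial readout of its activity. In ALS models with mutant SOD1, ER stress has been described mainly in motor neurons, which are a small share of the cells of the cord.

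The promoters of 6 members are shown: 4 that hold a match to a stress response motif, and those of Ddit3 and Trib3, the members with the largest genotype ratios, which hold none. Each is the stretch of 250 bases directly upstream of the RefSeq start site on GRCm38.p6, written 5′ to 3′ on the strand of the gene, and capitals mark motif matches. Hspa5 lies at chr2:34771840-34772089 on the plus strand, Herpud1 at chr8:94386179-94386428 on the plus strand, Chac1 at chr2:119350992-119351241 on the plus strand, Asns at chr6:7693210-7693459 on the minus strand, Ddit3 at chr10:127290543-127290792 on the plus strand and Trib3 at chr2:152344061-152344310 on the minus strand.
Hspa5: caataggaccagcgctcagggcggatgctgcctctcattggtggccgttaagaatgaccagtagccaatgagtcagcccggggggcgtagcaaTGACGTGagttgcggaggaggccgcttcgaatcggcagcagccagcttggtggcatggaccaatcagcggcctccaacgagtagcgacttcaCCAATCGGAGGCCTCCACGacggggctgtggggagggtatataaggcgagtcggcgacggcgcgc
Herpud1: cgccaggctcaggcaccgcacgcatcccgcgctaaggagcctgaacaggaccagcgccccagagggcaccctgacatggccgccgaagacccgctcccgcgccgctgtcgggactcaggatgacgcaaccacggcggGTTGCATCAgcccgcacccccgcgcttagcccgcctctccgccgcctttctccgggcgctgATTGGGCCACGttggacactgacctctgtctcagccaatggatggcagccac
Chac1: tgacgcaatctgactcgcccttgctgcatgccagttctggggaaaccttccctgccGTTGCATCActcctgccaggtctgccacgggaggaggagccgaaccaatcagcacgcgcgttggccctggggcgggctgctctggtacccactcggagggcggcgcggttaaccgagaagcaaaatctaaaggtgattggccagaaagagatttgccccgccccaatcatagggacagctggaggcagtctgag
Asns: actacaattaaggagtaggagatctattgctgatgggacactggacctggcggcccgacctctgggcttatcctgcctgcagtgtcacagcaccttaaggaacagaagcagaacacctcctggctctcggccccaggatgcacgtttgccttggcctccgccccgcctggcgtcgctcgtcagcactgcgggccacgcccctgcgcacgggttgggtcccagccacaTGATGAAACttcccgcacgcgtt
Ddit3: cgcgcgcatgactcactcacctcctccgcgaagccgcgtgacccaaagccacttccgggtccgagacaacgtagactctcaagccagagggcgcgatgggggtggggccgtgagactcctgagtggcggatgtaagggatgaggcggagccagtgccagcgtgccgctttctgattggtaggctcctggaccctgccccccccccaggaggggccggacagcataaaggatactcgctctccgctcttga
Trib3: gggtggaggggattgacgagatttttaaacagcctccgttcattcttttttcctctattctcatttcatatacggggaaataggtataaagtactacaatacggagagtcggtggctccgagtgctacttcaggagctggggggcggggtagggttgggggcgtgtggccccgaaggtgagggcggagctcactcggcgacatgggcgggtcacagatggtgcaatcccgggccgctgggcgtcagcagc

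Both strands were searched for 4 motifs. The ER stress element, CCAAT and CCACG separated by 9 free bases, which is bound by ATF6 together with NF-Y, was found in 1 member, Hspa5, at positions -65 to -47 from the start site, and in 0.113% of all 32851 promoters of the RefSeq set. The unfolded protein response element, TGACGTG, a site for ATF6 and XBP1, was likewise found in Hspa5, at -157 to -151, and in 1.65% of all promoters. The type II ER stress element, ATTGG and CCACG separated by 1 free base, was searched for after the other motifs had been chosen, and Herpud1 holds it at -52 to -42, against 0.0304% of all promoters. The C/EBP-ATF response element, TGATGNAAN, where ATF4 binds with a C/EBP partner, was found in Chac1 at -194 to -186, in Asns at -23 to -15 and in Herpud1 at -113 to -105, and in 3.44% of all promoters. In Chac1 and Herpud1 this element is on the opposite strand, so that it reads GTTGCATCA in the sequences above. The other 6 members, Ddit3 and Trib3 among them, have none of these letter strings within the 250 bases, and sequence farther away or inside the gene was not searched. For Atf5, which has 2 annotated starts, both stretches were searched. The matches do not overlap each other, and they describe sequence only.

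**Figure D1:**
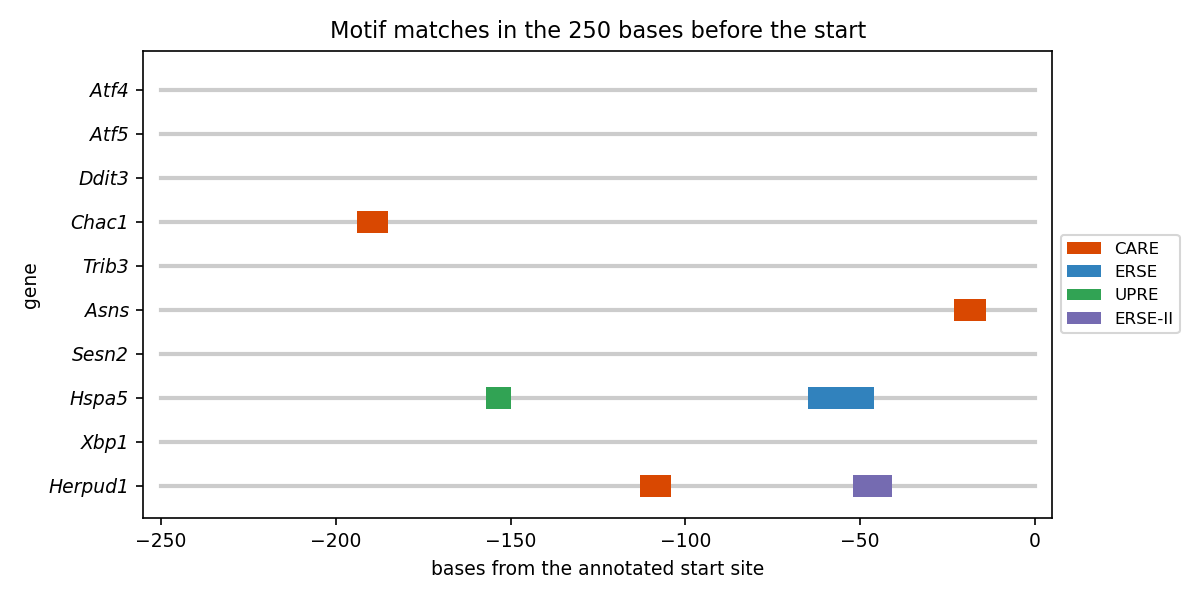
Motif matches in the 250 bases upstream of each member's start site (x axis, bases from the start site; one line per gene; CARE, C/EBP-ATF response element; ERSE and ERSE-II, ER stress elements; UPRE, unfolded protein response element). Matches are seen in Hspa5, Herpud1, Chac1 and Asns, and the lines of the other 6 members are empty.

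The transcription factors of the integrated stress response were higher in both G93A libraries than in both WT libraries. Here and below, values are given in the order WT vehicle, WT + SD, G93A vehicle, G93A + SD. Ddit3, which encodes CHOP, a transcription factor linked to cell death under prolonged ER stress, was at 13.0, 13.1, 27.0 and 34.2 RPKM. The WT libraries were nearly equal, and both G93A libraries were more than 2-fold above them. The ratio of G93A to WT was 2.07 with vehicle and 2.61 with SD, or 1.04 and 1.38 on the log2 scale. All fold changes on that scale were computed after adding a pseudocount of 0.1 RPKM, which understates the change of low genes.

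Atf5, a transcription factor of the same family as ATF4 that also serves the mitochondrial stress response, was at 7.89, 9.21, 14.5 and 17.5 RPKM. The groups again did not overlap, and G93A was above WT 1.84-fold with vehicle and 1.90-fold with SD. Its 2 rows gave nearly the same values, with 7.88 and 7.91 RPKM in WT vehicle and 17.6 and 17.3 RPKM in G93A + SD. Atf4 was at 41.0, 42.9, 61.1 and 57.6 RPKM. It was the most abundant of the 3 factors in each library, and its ratio of G93A to WT was 1.49 with vehicle and 1.34 with SD, below 1.5-fold in both.

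**Figure D2:**
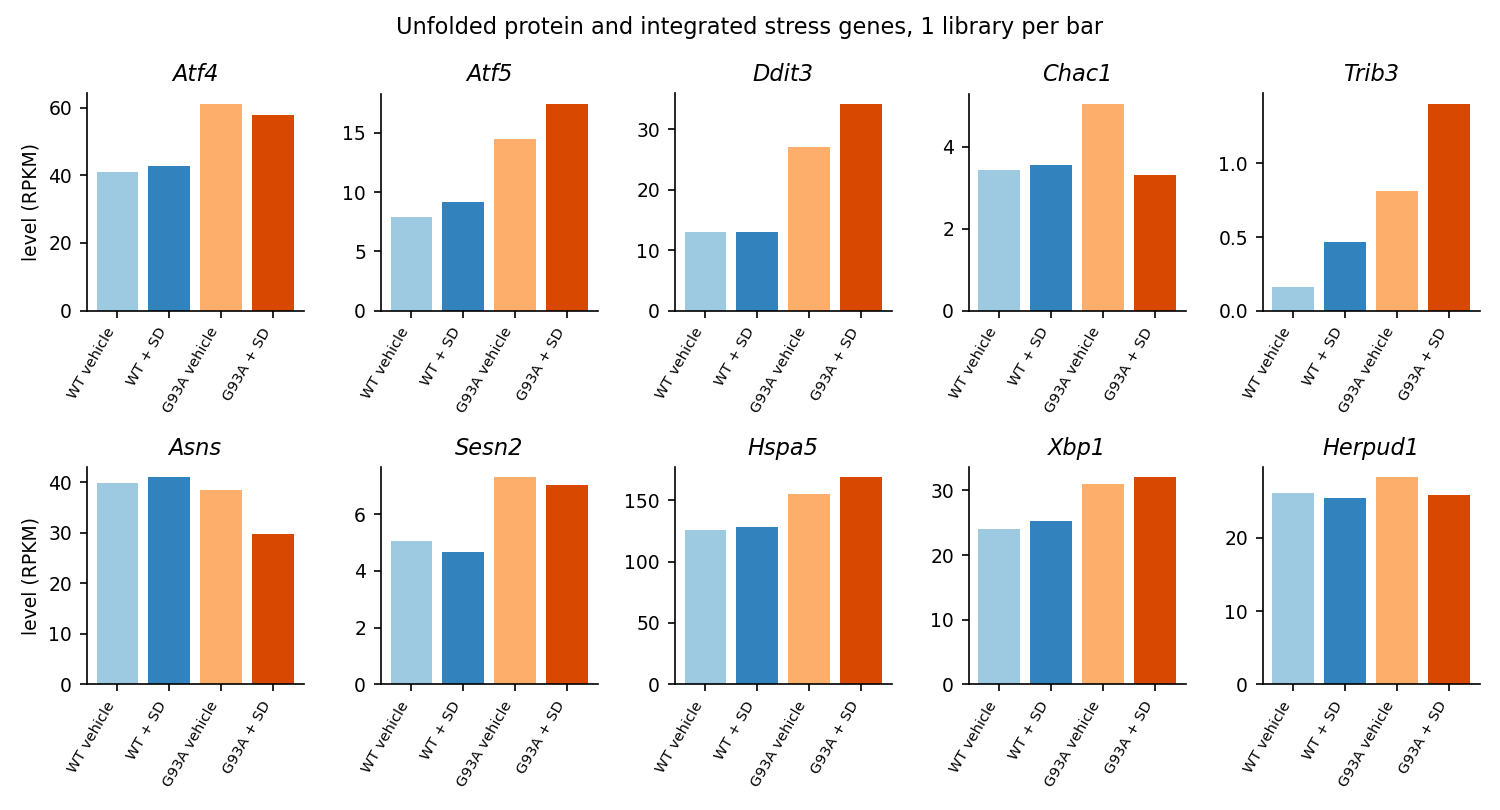
RPKM of the 10 members in the 4 libraries (one panel per gene, 1 value per library, no replicates). Ddit3, Atf5, Trib3, Atf4, Sesn2, Hspa5 and Xbp1 stand higher in both G93A libraries. Chac1 is high in G93A vehicle alone and Asns is lowest in G93A + SD.

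The targets of ATF4 and CHOP did not share a single pattern. Trib3, a pseudokinase that feeds back on ATF4 and CHOP, was at 0.158, 0.464, 0.816 and 1.40 RPKM. It was the lowest member in every library and also had the largest ratio of G93A to WT, 5.16 with vehicle and 3.02 with SD. These levels stand for an estimated 11.8, 36.04, 62.8 and 109.8 read pairs, so the counting error of Trib3 is far larger than that of any other member. The next lowest, Chac1, stood on an estimated 206, 224, 314 and 209 read pairs.

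Chac1, which degrades glutathione, was at 3.42, 3.57, 5.05 and 3.31 RPKM. Only the G93A vehicle library was high, and G93A + SD lay below both WT libraries. G93A was therefore 1.47-fold above WT with vehicle and at a ratio of 0.927 with SD.

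Sesn2, a stress-induced inhibitor of mTORC1 signalling, was at 5.07, 4.65, 7.31 and 7.02 RPKM. Both G93A libraries were above both WT libraries, by 1.44-fold with vehicle and 1.51-fold with SD, the latter falling just under 1.5-fold once the pseudocount is added. Asns, which makes asparagine, was at 39.8, 41.0, 38.5 and 29.8 RPKM. It was the one member that was lower in both G93A libraries than in both WT libraries, and the distance was small with vehicle, at a ratio of 0.967, and larger with SD, at 0.727.

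In the ER arm, none of the 3 members reached 1.5-fold in a genotype comparison. Hspa5, which encodes the ER chaperone BiP, was the most abundant member, at 126, 128, 155 and 169 RPKM, and its mean level was above that of 99.0% of gene names. The G93A libraries were higher than the WT libraries, by 1.23-fold with vehicle and 1.32-fold with SD. Xbp1, the transcription factor whose mRNA is spliced by IRE1, was at 24.01, 25.3, 30.97 and 32.03 RPKM. Its ratio of G93A to WT was 1.29 with vehicle and 1.27 with SD. The table has 1 row for Xbp1, so the spliced and unspliced forms were not told apart. Herpud1, a component of ER-associated degradation, was at 26.1, 25.5, 28.3 and 25.9 RPKM. The G93A + SD library lay between both WT libraries, and the ratio was 1.08 with vehicle and 1.02 with SD.

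Set side by side, 3 of 10 members (Atf5, Ddit3 and Trib3) were at least 1.5-fold higher in G93A than in WT with vehicle, where 14.4% of all gene names were. No member was at least 1.5-fold lower, against 5.31% of all names. With SD, the same 3 members were higher, where 17.1% of all names were, and no member was lower, against 7.82%. A count of 3 in 10 is small, and these shares give no measure of error. The 3 members were higher in both comparisons at once, where 11.6% of all names were. The median log2 difference of the members was 0.53 with vehicle and 0.41 with SD, beside 0.046 and 0.050 for all gene names.

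**Figure D3:**
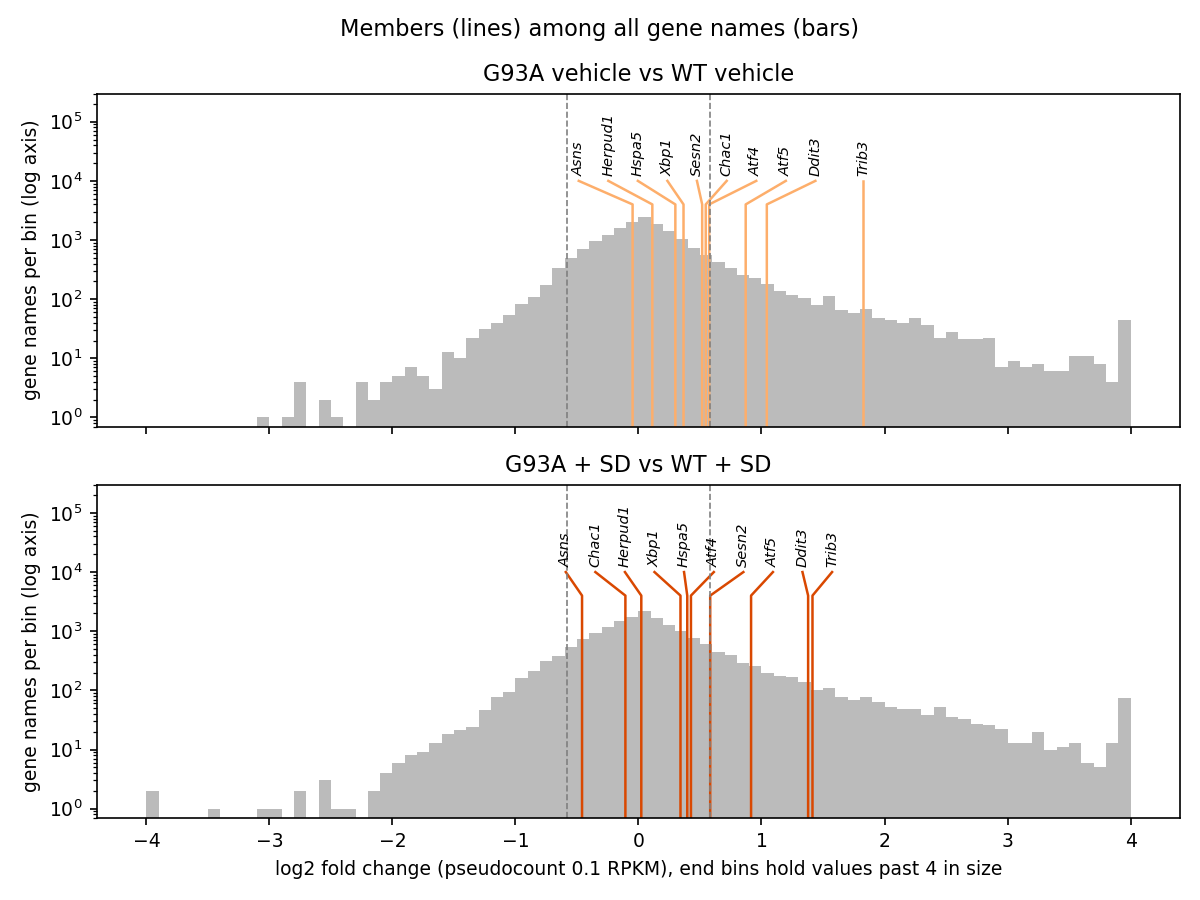
Log2 fold changes of G93A against WT for all 18674 gene names (grey bars, log count axis) with the 10 members as coloured lines, for vehicle above and SD below; dashed lines mark 1.5-fold. Most members lie to the right of the peak, with Ddit3 and Trib3 farthest to the right in both panels. Asns lies to the left of 0 in both panels and Chac1 with SD only.

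The position of single members among all names was highest for Trib3, whose log2 difference with vehicle was above that of 97.3% of names. This lead depends on the pseudocount, since with 1 RPKM the log2 difference of Trib3 was 0.65 with vehicle and 0.72 with SD, below that of Ddit3 at 0.99 and 1.32. Ddit3 was above 93.1%, Atf5 above 91.1% and Atf4 above 85.3% of names. At the other end, Herpud1 was above 57.1% and Asns above 37.2%. With SD, Trib3, Ddit3 and Atf5 were above 94.4%, 94.1% and 89.5% of names, while Chac1 was at 32.9% and Asns at 11.97%. Counting libraries rather than folds, 7 of 10 members had both G93A libraries above both WT libraries, where 39.7% of all names did. These were Atf4, Atf5, Ddit3, Trib3, Sesn2, Hspa5 and Xbp1. Asns alone had both below, against 28% of all names, and Chac1 and Herpud1 overlapped.

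The SD library was then compared with the vehicle library within each genotype. Between the WT libraries, 7 of 10 members differed by less than 0.1 on the log2 scale, beside 50.1% of all names. Trib3 was the only member at least 1.5-fold higher in WT + SD than in WT vehicle, at 2.94-fold, where 2.25% of all names were higher. No member was lower by that much, against 2.8% of names. The Trib3 difference rests on the 11.8 and 36.04 estimated read pairs given above, and it was no longer past 1.5-fold with a pseudocount of 1 RPKM.

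Between the G93A libraries, only Atf4, Sesn2 and Xbp1 differed by less than 0.1 on the log2 scale, where 40.9% of all names did. Trib3 was again higher with SD, at 1.72-fold, where 2.97% of all names were higher. Chac1 was lower with SD, 5.05 RPKM against 3.31 RPKM or a ratio of 0.655, where 2.55% of names were lower. Its log2 difference of -0.60 was above that of 2.46% of all names only. With a pseudocount of 1 RPKM, neither Trib3 nor Chac1 was past 1.5-fold between the G93A libraries. Asns followed at a ratio of 0.773, short of 1.5-fold, and its log2 difference was above that of 6.14% of names. Ddit3 was 1.27-fold higher with SD in G93A, and its log2 difference in WT was 0.0048.

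**Figure D4:**
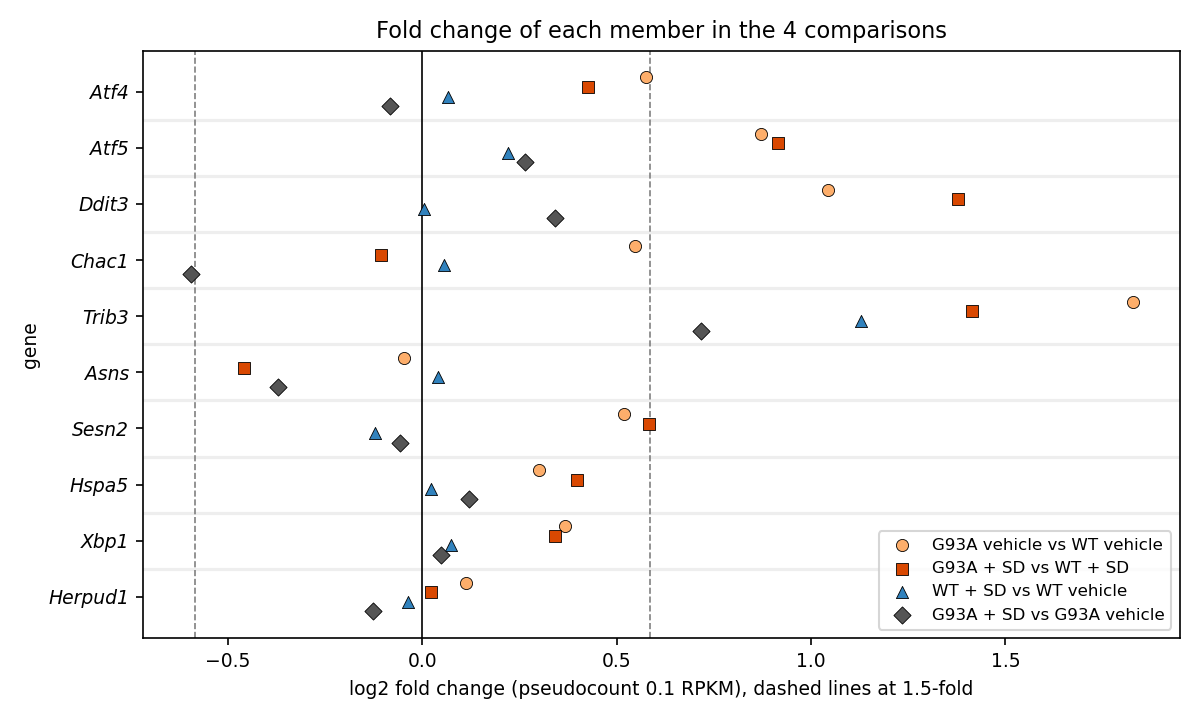
Log2 fold changes of the 10 members in the 4 comparisons (pseudocount 0.1 RPKM; dashed lines, 1.5-fold). The genotype comparisons spread to the right with Trib3, Ddit3 and Atf5 leading, while the SD comparisons lie between the 1.5-fold lines except for Trib3 and, in G93A, Chac1.

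The distance between genotypes was compared across treatments as the log2 difference with SD minus that with vehicle, a value without a test. It was -0.65 for Chac1 and -0.41 for Asns. For Trib3 it was -0.41, but it depends on the pseudocount and turned its sign, being 0.067 with 1 RPKM and -0.72 with 0.01 RPKM. It was largest above 0 for Ddit3, at 0.34. For the remaining 6 members it lay between -0.15 and 0.097.

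The wider pathway was described with a list of 101 other genes, of which 100 were in the table. With vehicle, 21 of the 100 were at least 1.5-fold higher in G93A and 1 was lower, beside 14.4% and 5.31% of all names. A log2 difference above 0 was found in 78 of them, beside 55.1% of all names. With SD, 24 were higher and 1 was lower, beside 17.1% and 7.82% of all names. The genotype counts by role and by cell type below stand beside these same shares, or beside 11.6% for genes higher in both comparisons. The list medians were 0.28 and 0.22, beside the 0.046 and 0.050 given above for all names. Of the genes higher in one comparison, 18 were higher in both, which is 85.7% of the vehicle list and 75% of the SD list, beside 80.4% and 67.8% for all gene names. Both G93A libraries were above both WT libraries in 67 of the 100 genes and below them in 13, beside 39.7% and 28% of all names.

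Genes upstream of ATF4 were mostly close to WT. Of the 4 eIF2alpha kinases, Eif2ak3, which encodes PERK, was at 7.34, 7.61, 6.91 and 7.41 RPKM. Eif2ak4, the amino acid sensor GCN2, was at 4.94, 5.001, 3.94 and 3.99 RPKM and thus lower in both G93A libraries, at a ratio of 0.797 with vehicle. Eif2ak1, the heme-regulated kinase, was at 26.5, 29.9, 25.1 and 23.1 RPKM. These 3 kinases were all short of 1.5-fold in both genotype comparisons. Eif2ak2, the interferon-induced kinase PKR, was at 4.20, 3.69, 5.96 and 8.08 RPKM, and its ratio of G93A to WT was 1.42 with vehicle and 2.19 with SD.

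Among the sensors and proteases of the ER membrane and Golgi, none of 5 was past 1.5-fold. Ern1, which encodes IRE1alpha, was at 1.62, 1.96, 2.13 and 2.34 RPKM. Atf6 was at 8.18, 8.46, 9.09 and 9.15 RPKM, and its relative Atf6b at 10.2, 8.65, 10.1 and 9.80 RPKM. No library stood far from the others for either gene, and the proteases that activate them, Mbtps1 and Mbtps2, had ratios of 1.03 and 0.911 with vehicle.

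Within eIF2, eIF2B and the phosphatase, 1 of 10 genes was higher in each genotype comparison. This was Ppp1r15a, which encodes GADD34, the stress-induced subunit that directs the phosphatase to eIF2alpha, at 5.29, 4.09, 9.39 and 10.3 RPKM. Its ratio was 1.77 with vehicle and 2.53 with SD. Eif2b4, a subunit of the exchange factor eIF2B, had the smallest vehicle difference of that group, at 11.6, 11.4, 11.7 and 11.5 RPKM.

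With the pseudocount of 0.1 RPKM, the largest log2 differences of the list were those of Nupr1 and Atf3 among the other stress transcription factors, of which 4 of 7 were higher in both genotype comparisons. Nupr1, a small chromatin protein induced by stress, was at 1.40, 1.15, 47.3 and 63.8 RPKM. Atf3, which partners with other members of the ATF and AP-1 families and is also a marker of injured neurons, was at 0.606, 0.760, 14.2 and 17.5 RPKM. Both were more than 20-fold higher in G93A, with ratios of 33.8 and 55.5 for Nupr1 and 23.4 and 23.1 for Atf3. Jdp2, a repressor of the AP-1 family, had the lowest ratio in that group, 0.900 with vehicle.

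Of 10 enzymes of amino acid synthesis and one-carbon metabolism, Cth alone was higher with vehicle and Shmt2 alone with SD, and the medians were 0.46 with vehicle and 0.31 with SD. Cth, which makes cysteine from cystathionine, was at 1.44, 2.13, 2.87 and 2.76 RPKM, a ratio of 1.99 with vehicle and 1.30 with SD. Shmt2, the mitochondrial serine hydroxymethyltransferase, was at 6.43, 5.84, 8.94 and 8.995 RPKM. Psat1, of the serine pathway, was at 94.0, 95.9, 91.4 and 87.6 RPKM, so that like Asns it was not higher in G93A. Among 9 amino acid transporters, 2 were higher with vehicle and 4 with SD. Slc3a2, the heavy chain shared by several transporters, was at 31.7, 30.8, 54.5 and 54.8 RPKM, 1.72-fold and 1.78-fold higher in G93A. Slc7a11, the cystine transporter that pairs with it, was at 2.70, 3.06, 2.12 and 2.98 RPKM and overlapped between genotypes.

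None of the 12 aminoacyl-tRNA synthetases was past 1.5-fold in either genotype comparison. Lars was at 10.9, 10.2, 14.9 and 14.7 RPKM, and Gars at 63.9, 63.3, 57.8 and 49.2 RPKM. Of the 13 other targets of ATF4 and CHOP, 7 were higher and 1 was lower in each genotype comparison. The shares of all names were 14.4% and 5.31% with vehicle and 17.1% and 7.82% with SD. Among those higher in both, Gdf15, Fgf21, Adm2, Bbc3 and Tnfrsf10b had means below 1 RPKM. Bbc3 only just reached 1.5-fold with vehicle, at a log2 difference of 0.586. Ddit4 was higher with vehicle only and Stc2, also with a mean below 1 RPKM, with SD only. Eif4ebp1, an inhibitor of cap-dependent translation, was at 0.703, 0.421, 3.27 and 3.66 RPKM, 4.65-fold and 8.68-fold higher in G93A. The gene that was lower was Vegfa, an angiogenic and neurotrophic factor, at 14.1, 15.0, 8.95 and 8.83 RPKM.

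On the ER side, 2 of 12 chaperones and co-chaperones were higher in G93A with vehicle and 1 with SD. Sdf2l1, a partner of BiP, was at 7.93, 7.56, 13.0 and 10.4 RPKM, while Hyou1, the exchange factor of BiP, was at 19.6, 19.9, 18.8 and 17.6 RPKM. Of 7 disulfide isomerases and oxidases, 1 was higher with vehicle and 2 with SD. Pdia4 was at 21.2, 21.4, 32.7 and 34.3 RPKM, and the oxidase gene Ero1lb at 4.34, 4.90, 4.49 and 4.42 RPKM. Of 11 genes of ER-associated degradation, 3 were higher in each comparison. Edem1, which sends misfolded glycoproteins to degradation, was at 5.54, 5.48, 10.1 and 11.3 RPKM, or 1.81-fold and 2.06-fold higher in G93A. Ube2j1, a ubiquitin-conjugating enzyme of the ER membrane, was at 51.3, 56.0, 40.4 and 38.8 RPKM, lower in both G93A libraries.

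**Figure D5:**
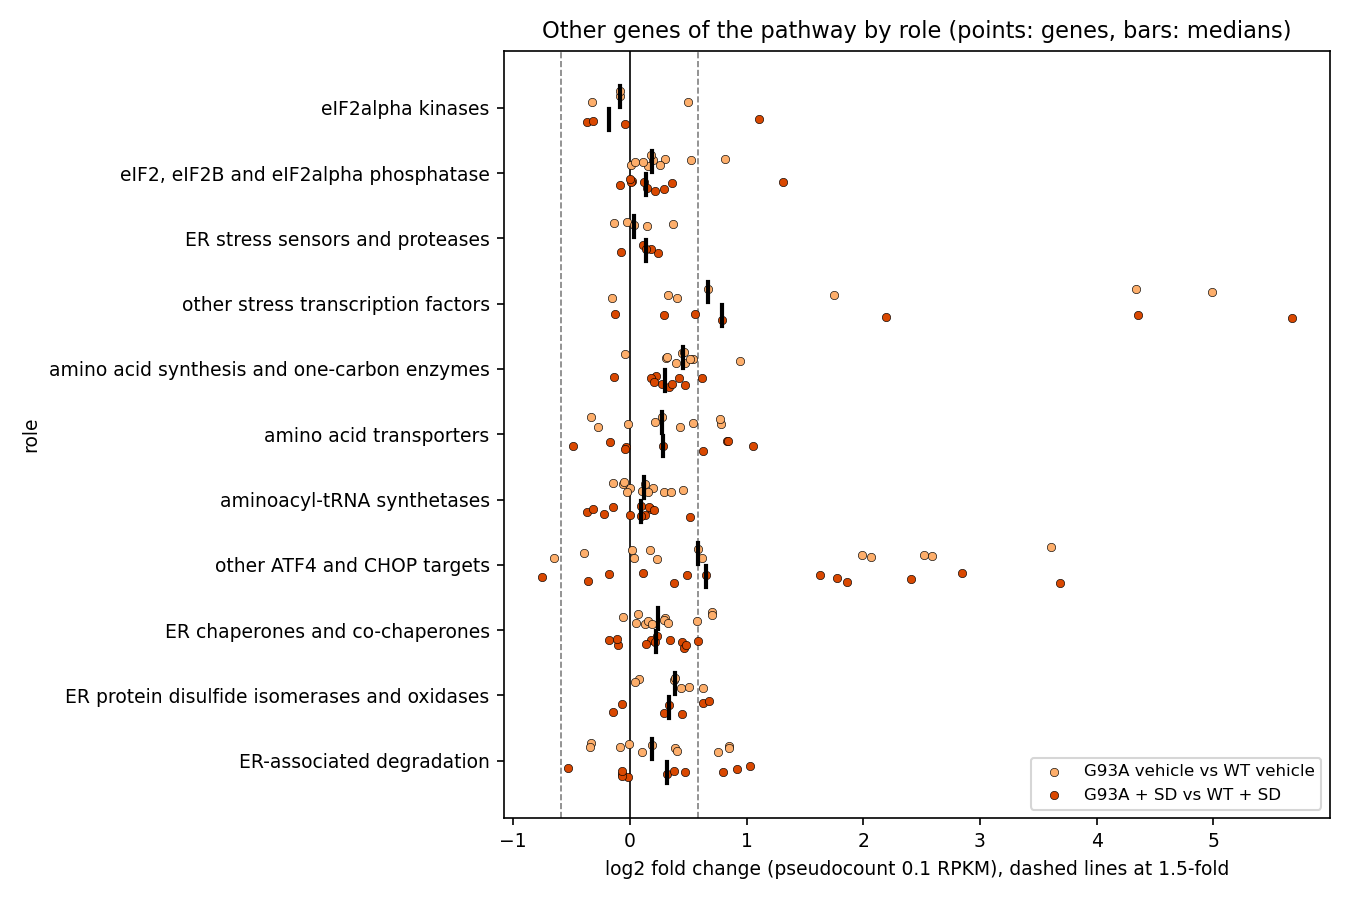
Log2 fold changes of G93A against WT for the 100 other pathway genes by role (points, single genes; short bars, medians; light, vehicle; dark, SD; pseudocount 0.1 RPKM; dashed lines, 1.5-fold). The other stress transcription factors and the other ATF4 and CHOP targets reach farthest to the right, and the eIF2alpha kinases, the ER sensors and the tRNA synthetases lie within 1.5-fold except Eif2ak2 with SD.

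Markers of several cell types differed between genotypes, in both directions. All 10 microglia markers were present, with a summed level of 165 and 152 RPKM in the WT libraries and 905 and 906 RPKM in the G93A libraries, and 8 of 10 were higher with vehicle and 9 with SD. Aif1 was at 3.05, 2.49, 15.2 and 16.3 RPKM. The 7 astrocyte markers summed to 1362, 1300, 3681 and 4415 RPKM, and 5 of the 7 were higher in each genotype comparison. Gfap, at 441, 386, 2269 and 2707 RPKM, made up most of this difference. Slc1a2 and S100b were within 1.5-fold, and S100b was lower in both G93A libraries, at 465, 469, 411 and 396 RPKM. In the other direction, the 8 motor neuron markers summed to 1019, 987, 567 and 378 RPKM, and Chat was at 9.83, 8.57, 6.55 and 4.33 RPKM. Most of these sums came from 2 neurofilament genes, Nefm at 612, 603, 347 and 234 RPKM and Nefh at 327, 313, 160 and 99.2 RPKM. At least 1.5-fold lower were 4 of the 8 with vehicle and 6 with SD. Isl1 went the other way and was slightly higher in both G93A libraries, at 0.770, 0.760, 0.806 and 0.812 RPKM. In bulk tissue, fewer cells of a type and less RNA per cell cannot be told apart, and the part of these cell types in the differences of the members was not tested. The 6 neuron markers in the table, of a list of 8, summed to 1669, 1665, 1077 and 927 RPKM. Oligodendrocyte markers summed to 8814, 9067, 7172 and 6573 RPKM, with Mbp at 4669, 4662, 3714 and 3575 RPKM. Endothelial markers summed to between 42.5 and 51.6 RPKM, and T and B cell markers to at most 0.699 RPKM with 3 of 7 at 0 in WT vehicle. For the labelled tissue, 4 Hox genes of the lumbar cord were looked at, and they summed to 35.8, 37.4, 24.7 and 23.6 RPKM. They were above 0 in each library, which is only a weak check of the cord level. All 4 were lower in G93A in each genotype comparison, 2 of them at least 1.5-fold with vehicle and 3 with SD. The cause was not tested. The human transgene is not in the table, so the genotype labels could not be checked with it.

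Depth is not given in the table. From the commonest step of low values, taken as RPKM times transcript length, it was estimated at 36800000, 38300000, 38000000 and 38600000 read pairs. The step was sought within a fixed narrow range, which confines the estimates. They therefore cannot show whether depth differed among the libraries. The estimate takes 1 step as 1 read pair, although the methods name paired-end adaptors and not whether both ends were read. Between 42.6% and 46.3% of low values lay on whole multiples of 0.5 steps, within 0.1 of that spacing on either side. Evenly spread values would give 20%. Many low values thus lay off these multiples, and the estimated read pairs are approximate. Ddit3 shares 16 of its 838 windows of 53 bases with Mars, which lies on the opposite strand, and 1 row of Atf5 shares 33 of 1764 with Il4i1 and Nup62. Counting is not stated to use strand, so reads from these stretches, 1.91% and 1.87% of the transcripts, could come from either gene. No shared window was found in the other rows of the members, except that 1 of the Hspa5 rows was not examined.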

How the data were processed

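Lumbar spinal cord RNA of 4 libraries, 1 per condition, was analysed from 1 table, with conditions taken from the labels. The authors' methods describe polyA RNA read as 53 bases, STAR alignment to GRCm38 and HTSeq counting against Ensembl genes. The table lists RefSeq transcripts, and its header names no unit. RPKM was inferred as the unit of the deposited values, since their products with transcript length sum to nearly the same total in each library. The ratio columns deposited by the authors hold their own comparisons and were not used.

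Rows of 1 name were averaged. Fold changes are log2 of RPKM plus 0.1, over all 18674 names, and a gene was called at 1.5-fold. No low-value filter was applied, and 9 of the 10 members had a mean of at least 1 RPKM. With 1 library per condition, no model was fitted. Members and lists were chosen with earlier results of these data known. Named genes are all members, every eIF2alpha kinase and ER sensor, Ppp1r15a, Atf3, the highest and lowest gene with vehicle of each other role among those with a mean of at least 1 RPKM, and 4 cell markers. Shmt2, Slc1a2, S100b, Nefh, Nefm, Isl1 and the ATF4 and CHOP targets named beyond this rule were added with their values known. A marker list is not reported here. The genes of the last closing paragraphs were chosen after their values were seen. Read pairs were estimated from the step of low values, read as 1 pair, and transcript lengths of GENCODE M21, available for 92.1% of rows, and cover no interval. Promoters and member positions came from RefSeq on GRCm38.p6, where all 10 members matched. The alternatives were other pseudocounts, a mean of at least 1 RPKM, median-ratio scaling, the row with the highest mean and a 2-fold threshold. Scripts were in Python 3.11.15 (pandas 2.3.3, numpy 2.4.6, matplotlib 3.10.9). The steps for fold changes and calls were tested on simulated data, for well-expressed names only. The read-pair estimate, the motif search and the search for shared windows were not tested in this way.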

Additional observations from a re-analysis of the deposited data

Results flagged for a closer look

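Chac1 stood out because the SD library lay below vehicle in G93A and slightly above it in WT. Its log2 difference between SD and vehicle was -0.60 in G93A and 0.057 in WT. The levels were 3.42 RPKM in WT vehicle, 3.57 RPKM in WT + SD, 5.05 RPKM in G93A vehicle and 3.31 RPKM in G93A + SD. The difference between the genotypes was not tested, since each condition has 1 library.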

How the results depend on the processing

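The medians of the members and of the pathway list moved by less than 0.1 on the log2 scale under both other pseudocounts, median-ratio scaling, the mean of at least 1 RPKM and the row with the highest mean. Of the log2 differences of single members, 188 moved by less than 0.1 and 8 moved by more, and no called difference turned its direction. Of the 3 members higher in G93A in each genotype comparison, Atf5 is lost at 2-fold and Trib3 with a mean of at least 1 RPKM, leaving 2, and with SD Sesn2 joins at a pseudocount of 0.01 RPKM or none, giving 4. With a pseudocount of 1 RPKM, 0 members were at least 1.5-fold higher with SD in WT, and 0 were higher and 0 lower with SD in G93A. The pathway list then had 0 higher and 0 lower in WT and 0 lower in G93A. With a pseudocount of 0.01 RPKM, the pathway list had 3 higher and 2 lower with SD in WT and 1 higher with SD in G93A. With no pseudocount, an alternative added after seeing the data, these counts were 2, 2 and 1. Scaling by median ratios gave 2 pathway genes lower in G93A with SD than in WT with SD, and 0 higher with SD in WT. With a mean of at least 1 RPKM, 0 members were higher with SD in either genotype, since Trib3 is left out, and the pathway list had 0 higher in WT and 0 lower in G93A. At 2-fold, 0 members were higher and 0 lower with SD in G93A, and the pathway list had 8 higher and 0 lower with vehicle, 13 higher and 0 lower with SD, and 0 in each direction with SD in WT and 0 lower in G93A. The cause was not tested. The libraries carry no replicate numbers that could pair them, and an additive fit of genotype and treatment over the 4 libraries was not run. Depth limits Trib3 most, at an estimated 11.8 read pairs in WT vehicle. Spread between animals, and any effect of the day or lane of a library, cannot be told apart from the conditions.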

Other observations

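The genes Gdf15, Fgf21 and Adm2 of the pathway list, which encode secreted factors, were at or near 0 in WT cord and above 0 in G93A cord. All 3 were picked with their values known, and other secreted factors of the list, such as Vegfa, do not share this pattern. Gdf15, a hormone that reduces appetite, was listed at 0 in WT vehicle and at 0.0241 RPKM in WT + SD, and was at 1.12 RPKM in G93A vehicle and 1.4998 RPKM in G93A + SD, an estimated 65.8 and 89.5 read pairs. Fgf21, a metabolic hormone, was listed at 0 in both WT libraries and was at 0.472 and 0.243 RPKM in the G93A libraries, an estimated 17.1 and 8.92 read pairs. Adm2, a peptide of the adrenomedullin family, was likewise listed at 0 in both WT libraries and was at 0.501 and 0.432 RPKM in G93A. No fold is given against a library at 0.

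The aminoacyl-tRNA synthetases, which charge tRNAs with amino acids, were all on one side in the comparison of G93A + SD with G93A vehicle, which was also seen after the values were known. All 12 were lower with SD, by log2 differences of -0.017 to -0.24 with a median of -0.12, and none reached 1.5-fold. Of all names, 46.6% were lower in that comparison. Asns, the amino acid enzyme among the members, had a log2 difference of -0.37 in that comparison. This difference was not tested.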
